A study of Nematostella vectensis with 4 samples.

Results

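In cells sorted from the mesentery of the sea anemone Nematostella vectensis, 103 of 25729 gene models were both abundant in the muscle fraction and concentrated there. A gene model was a member when its level reached 100 CPM in both muscle libraries and its lower muscle CPM was at least 4 times its higher non-muscle CPM. CPM are counts per 1000000 of a library size adjusted by TMM, the trimmed mean of M values, which limits the weight of a few very abundant transcripts. Of 1005 gene models that reached 100 CPM in both muscle libraries, the 103 members were 10.2% and the other 902 missed the ratio. The levels and the ratio between the fractions therefore chose the members, and are described below without a test.

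The animals were transgenic adults carrying MHC::mCherry, a red fluorescent reporter driven from a myosin heavy chain (MHC) gene. Mesenteries of 8 adults were dissociated with papain and collagenase after removal of their most distal tissue, and cells were sorted by mCherry into a muscle fraction (mCherry+, 2 libraries) and a non-muscle fraction (mCherry-, 2 libraries). Both fractions came from animals with the same transgene, and the sort rests on that 1 reporter, so a muscle cell without mCherry would fall into the non-muscle fraction. The labels name the fractions as mesentery muscle and mesentery non muscle, and the match of each to a sort follows the wording of the design. The labels do not tie animals to libraries, and the spread between libraries of a fraction may be partly technical.

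Mesenteries are the internal folds that run from the body wall to the gut of a sea anemone. They carry the longitudinal retractor muscle, whose contraction shortens the body, beside digestive, stinging and reproductive tissue. Cnidarian muscle cells are largely epitheliomuscular, with contractile filaments of actin and myosin at the base of an epithelial cell. Contractile proteins are among the most abundant products of muscle cells in animals generally.

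The gene models carry NVE identifiers, and 0 of 25729 matched a name in the RefSeq gene table of assembly jaNemVect1.1. No function is given here to any member, no sequence is shown, and whether the members include the myosin heavy chain or other muscle markers was not tested. The word muscle below is the label of the fraction. Counts were not divided by transcript length, so the order of members by CPM is an order of read shares and not of transcript numbers.

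Library totals ran from 34876467 to 53424952 counts in muscle and from 31813772 to 67102862 counts in non-muscle. The lowest count of any member in any library was 569, for which the counting error alone is 4.19% (Poisson SD). In bulk RNA, fewer cells of a type and less RNA per cell cannot be told apart.

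**Figure D1:**
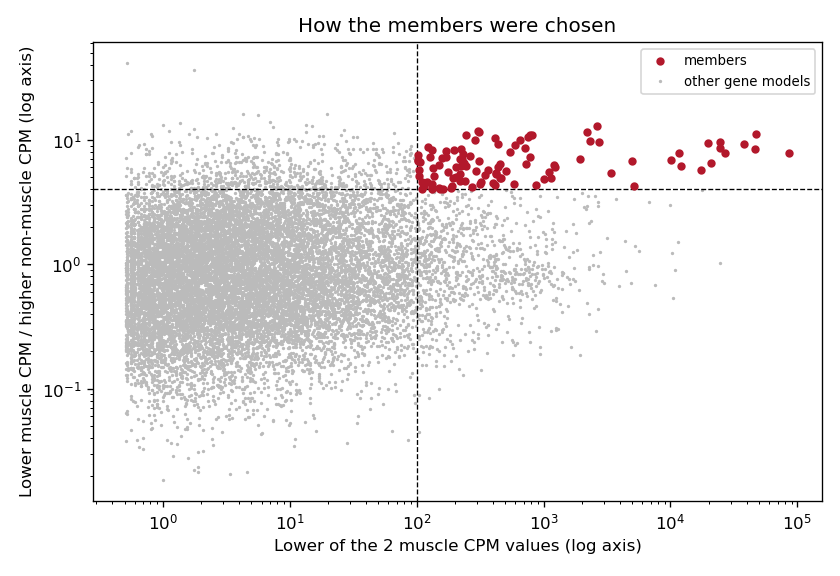
Each point is a gene model with over 0.5 CPM in both muscle libraries and a count in non-muscle, placed by the lower of its 2 muscle CPM values (x, log axis) and by that value over its higher non-muscle CPM (y, log axis). Dashed lines mark 100 CPM and a ratio of 4, and the 103 members fill the upper right corner.

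The member with the most reads was NVE14552. It had 108521 and 85713 CPM in the muscle libraries (replicates 1 and 2), against 10960 and 7308 CPM in the non-muscle libraries. Its lower muscle value was 7.82 times its higher non-muscle value, and its fitted log2 fold change was 3.41 (SE 0.38, edgeR). NVE20160 had 47601 and 47420 CPM in muscle, against 4266 and 2207 CPM in non-muscle. Its muscle libraries were nearly equal, whereas its level in non-muscle replicate 1 was above that in replicate 2 by a log2 ratio of 0.95. NVE2876 had 47079 and 46624 CPM in muscle, against 5488 and 4036 CPM in non-muscle. Like NVE20160 it was even between the muscle libraries, but its log2 ratio between the non-muscle libraries was smaller, at 0.44.

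NVE3912 had 43798 and 37642 CPM in muscle, against 4072 and 1509 CPM in non-muscle. NVE6666 had 33667 and 26699 CPM in muscle, against 3394 and 1492 CPM in non-muscle. NVE16356 had 33290 and 24799 CPM in muscle, against 2597 and 1271 CPM in non-muscle. In these 3 members replicate 1 was the higher library of both fractions, and its lead was wider in non-muscle (log2 ratios of 1.43, 1.19 and 1.03) than in muscle (0.22, 0.33 and 0.42). NVE1725 had 32919 and 20935 CPM in muscle, against 3240 and 970 CPM in non-muscle. NVE4315 had 28867 and 24606 CPM in muscle, against 2884 and 1540 CPM in non-muscle. Among the 10 members of highest mean muscle CPM, the lead of replicate 1 was widest in NVE1725. Its log2 ratio was 0.65 in muscle and 1.74 in non-muscle. NVE7822 had 22319 and 19617 CPM in muscle, against 2092 and 862 CPM in non-muscle. NVE12992 had 17443 and 18206 CPM in muscle, against 3031 and 1330 CPM in non-muscle. Under TMM, NVE12992 was the one of these 10 members with more in muscle replicate 2 than in replicate 1. As plain shares of the muscle counts (replicates 1 and 2), NVE20160 (3.67% and 3.97%) and NVE2876 (3.63% and 3.90%) were higher in replicate 2 too. The log2 fold change of NVE12992, 3.03 (SE 0.43, edgeR), was the smallest of the 10.

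The levels fell off after the first 13 members. A mean of at least 10000 CPM in muscle was reached by 13 members, the range from 1000 to 10000 CPM held 13 more, and 77 members lay from 100 to 1000 CPM. The lowest mean of the first set was 12058 CPM, and the highest of the second was 6203 CPM. The median member had a mean of 354 CPM in muscle, and the median of the members' non-muscle means was 47.4 CPM. Among gene models that reached 100 CPM in both muscle libraries, members were 13 of 20 (65%) at a mean of at least 10000 CPM. From 1000 to 10000 CPM they were 13 of 130 (10%), and from 100 to 1000 CPM they were 77 of 855 (9.01%). The muscle level also enters the ratio that chose the members, so these percentages are a description only.

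**Figure D2:**
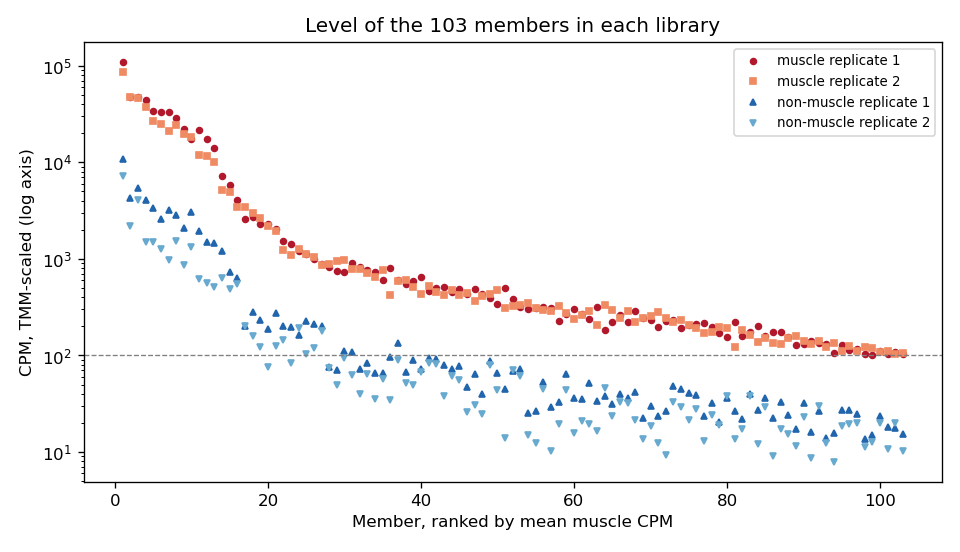
CPM (TMM-scaled, log axis) of the 103 members in each of the 4 libraries, ordered by mean muscle CPM, with a dashed line at 100 CPM. The 13 members at the left stand above the rest in both muscle libraries, and non-muscle replicate 1 lies above replicate 2 for 97 of the 103.

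The members took a large part of the muscle libraries. They held 40.8% and 37.1% of all counts in the muscle libraries (replicates 1 and 2), against 7.29% and 3.52% in the non-muscle libraries, as plain shares of the library total. The mean was 39.0% ± 2.6 in muscle and 5.40% ± 2.66 in non-muscle (SD, n = 2 each). The widest 95% Wilson interval of these shares reached 0.0163 percentage points to either side, which covers counting error only. The 902 other gene models of at least 100 CPM in muscle held 46.2% and 49.0% of the muscle counts, against 67.8% and 69.6% of the non-muscle counts. Plain shares add up to a fixed total, so a larger share of the members leaves less for all others. Under TMM the median log2 fold change of these 902, muscle over non-muscle, was 0.25 (edgeR).

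Most of the members' counts came from the 13 most abundant. These 13 held 36.1% and 32.3% of all counts in the muscle libraries, against 6.17% and 2.86% in the non-muscle libraries. The 77 members of 100 to 1000 CPM together held 1.97% and 2.11% of the muscle counts, against 0.489% and 0.312% of the non-muscle counts. Of the counts held by the members, NVE14552 alone took 20.5% and 19.3% in muscle, against 19.8% and 24.5% in non-muscle. The first 3 members took 38.4% and 40.5% in muscle, against 37.4% and 45.4% in non-muscle. The first 13 together took 88.5% and 87.0% in muscle, against 84.7% and 81.1% in non-muscle. Non-muscle replicate 2 thus had the heaviest weight on the first 3 members and the lightest on the first 13.

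**Figure D3:**
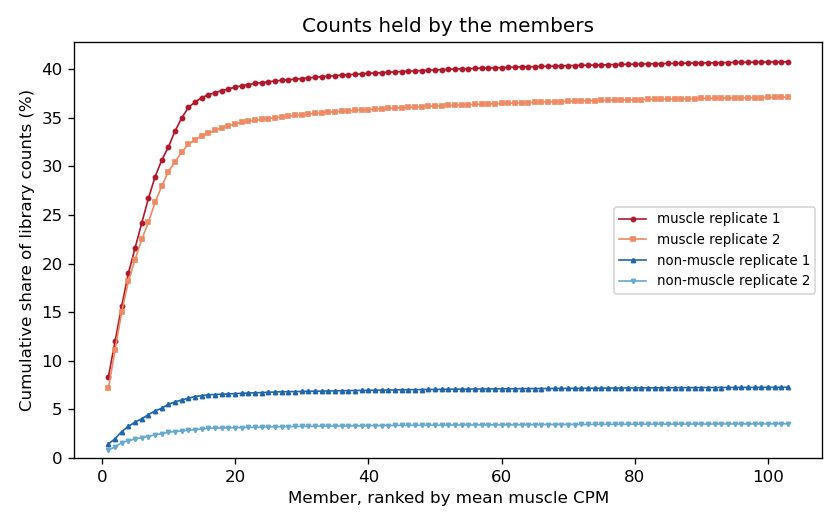
Cumulative share of all library counts (%, plain totals) held by the members, added in order of mean muscle CPM. Each curve is 1 library: the muscle curves end at 40.8% and 37.1%, the non-muscle curves at 7.29% and 3.52%, and all bend after the first 13 members.

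The same 13 members ranked high in the non-muscle libraries too. All 13 were among the 20 gene models with the highest CPM in each muscle library. In non-muscle replicate 1 all 13 were still among the first 100 and 4 among the first 20, whereas in non-muscle replicate 2 these numbers were 6 and 1. Of all 103 members, 14 were among the first 100 in non-muscle replicate 1 and 6 in replicate 2, against 23 and 21 in the muscle libraries.

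The log2 fold change of muscle over non-muscle, from an edgeR fit to all 17994 gene models that passed a filter on low counts, ran from 2.12 to 4.09 over the members with a median of 3.15. All 103 members passed that filter. All 103 were called higher at an adjusted p under 0.05, where 23.7% of the gene models tested were called higher and 21.6% lower, and all were at least 4-fold higher, where 9.46% were. The members were chosen on this contrast, so nothing is read from that count. The median log2 fold change was 3.68 over the 13 members of at least 10000 CPM, 3.15 over the 13 members below them and 3.02 over the 77 of 100 to 1000 CPM. Across the 103 members the log2 fold change was related to the log2 mean muscle CPM with Pearson's r at 0.45 and Spearman's rho at 0.43. The points share the same 4 libraries, and the muscle level enters both axes. The rule also cut off low values of both the muscle level and the fold. The relation therefore describes the chosen set only, and nothing is read from it.

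The size of the fold depended on the non-muscle library more than on the muscle library. Over the 103 members, the median fold was 7.33 for muscle replicate 1 and 6.75 for muscle replicate 2 over non-muscle replicate 1. Over non-muscle replicate 2, the median fold was 11.4 for muscle replicate 1 and 11.1 for muscle replicate 2. For the 13 most abundant members, the medians were 10.2 and 7.87 over non-muscle replicate 1, and 25.9 and 19.5 over non-muscle replicate 2. For the 13 below them they were 7.43 and 6.75, and 12.0 and 10.9. For the 77 members of 100 to 1000 CPM they were 6.71 and 6.19, and 10.1 and 10.3. The medians thus differed more by level over non-muscle replicate 2. The fold also depended on the scaling: with plain library totals the median log2 fold change of the 103 members was 2.49, with a range from 1.47 to 3.42, while the median shift of all gene models tested was -0.63. Plain totals also changed the balance of all calls, of which 24.6% were higher in muscle against 52.3% under TMM.

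The highest ratio of lower muscle to higher non-muscle CPM among the members was 12.8, in NVE20304. It had 2621 and 3418 CPM in muscle, against 204 and 201 CPM in non-muscle. The non-muscle libraries were close to equal for it, unlike those of most members, and muscle replicate 2 was its higher muscle library. NVE2557 had 302 and 350 CPM in muscle, against 25.6 and 14.9 CPM in non-muscle. NVE17869 had 313 and 308 CPM in muscle, against 26.4 and 12.5 CPM in non-muscle. NVE21834 had 2317 and 2199 CPM in muscle, against 189 and 75.6 CPM in non-muscle. NVE21834 had the largest fitted log2 fold change of the members, 4.09 (SE 0.47, edgeR), and its level in non-muscle replicate 2 was the lowest of any member relative to muscle, 3.35% of its muscle mean. NVE20160, described above, completes the 5 highest with a ratio of 11.1. A ratio of at least 8 was found in 28 members and one of at least 10 in 11.

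At the other end, 13 members had a ratio under 4.4. NVE7792 was the last inside at 4.02, with 176 and 162 CPM in muscle, against 40.4 and 37.9 CPM in non-muscle. NVE7472 followed at 4.04, with 129 and 110 CPM in muscle, against 27.2 and 18.8 CPM in non-muscle. NVE26017 had a ratio of 4.05, with 176 and 133 CPM in muscle, against 32.8 and 17.4 CPM in non-muscle. Under TMM these 3 were higher in replicate 1 of both fractions. NVE5715, given with its neighbour in number further on, also had a ratio of 4.05. NVE12517, at a ratio of 4.07, went the other way, with 186 and 330 CPM in muscle, against 38.0 and 45.6 CPM in non-muscle. The 3 gene models just outside the ratio were NVE6160 (3.93), NVE22395 (3.92) and NVE20883 (3.92). NVE6160 was as abundant as the leading members, with 23849 and 17733 CPM in muscle, against 4511 and 2809 CPM in non-muscle. On the other threshold, NVE2897, NVE5503 and NVE9950 were just inside with a lower muscle value of 102, 103 and 103 CPM, and 7 members lay under 110 CPM. Just outside lay NVE4206, NVE15584 and NVE4331, with 97.2, 95.7 and 93.5 CPM. The values therefore run on across both limits without a gap, as the plot of how the members were chosen shows.

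Every member was counted in both non-muscle libraries, at a level that differed among members. Relative to its own muscle mean, a member stood at 6.76% to 23.9% in non-muscle replicate 1, with a median of 13.7%. In non-muscle replicate 2 it stood at 3.35% to 22.4%, with a median of 8.74%. The upper ends of both ranges are limited by the ratio of 4 that chose the members. The 13 most abundant members lay from 8.94% to 17.0% in non-muscle replicate 1 and from 3.60% to 8.61% in replicate 2. For the 13 members of 1000 to 10000 CPM the ranges were wider, from 6.76% to 20.4% and from 3.35% to 15.4%. Whether muscle RNA or muscle cells in the mCherry- sort contributed to these levels was not tested.

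**Figure D4:**
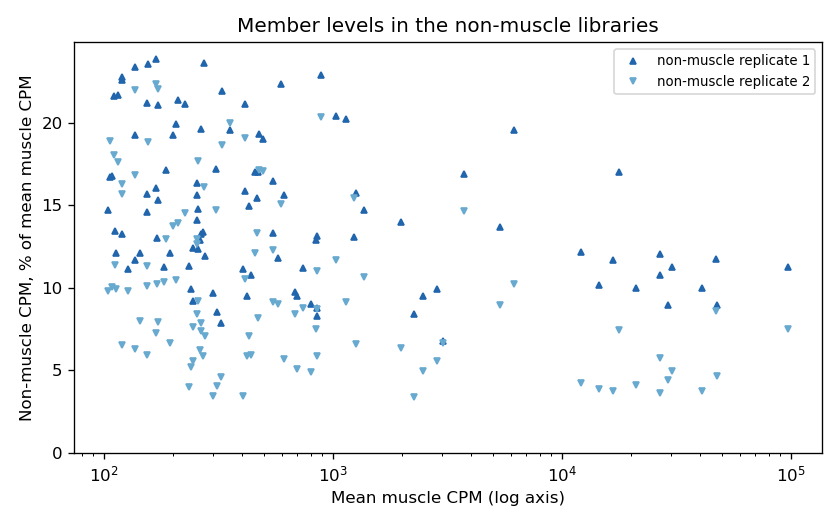
Level of each member in the 2 non-muscle libraries as a percentage of its mean muscle CPM (y), against that mean (x, log axis). In the 13 members of at least 10000 CPM replicate 1 is above replicate 2 throughout, with medians of 11.2% and 4.37%. Among members of lower level the spreads of the 2 libraries overlap. Replicate 1 is still the higher in 12 of 13 members of 1000 to 10000 CPM and in 72 of 77 of 100 to 1000 CPM.

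The members were more even within the muscle fraction than within the non-muscle fraction. Across the 103 members, which are not independent replicates, Pearson's r of log2 CPM was 0.992 between the libraries of the muscle fraction and 0.980 between those of the non-muscle fraction. The muscle libraries differed by more than 1.5-fold for 7 members and the non-muscle libraries for 57, of which 26 differed more than 2-fold. On CPM with a pseudocount of 0.5, replicate 1 over replicate 2 had a median log2 ratio of 0.06 in muscle, from -0.83 to 0.94, and 0.62 in non-muscle, from -0.26 to 1.74. Replicate 1 was the higher muscle library for 62 of 103 members under TMM but for 37 under plain totals, so its direction in muscle depends on the scaling. Replicate 1 was the higher non-muscle library for 97 members under TMM and for 99 under plain totals. Among the 902 other gene models of at least 100 CPM in muscle, the median log2 ratio was 0.06 in muscle and -0.07 in non-muscle, and 43.2% were higher in non-muscle replicate 1. Without regard to sign, the median log2 ratio of these 902 was 0.27 in muscle and 0.32 in non-muscle. That of the members was 0.20 and 0.62. The counts over 1.5-fold were not made for the 902. The rule used the lower muscle value, which selects against members with uneven muscle libraries. The rule used the higher of the 2 non-muscle values whichever library gave it, and whether the members' excess in replicate 1 differs from that of other gene models beyond chance was not tested.

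The excess in non-muscle replicate 1 was unequal among members, and its median was greatest in the most abundant set. Across the 103 members it was related to the log2 mean muscle CPM with Pearson's r at 0.38 and Spearman's rho at 0.30. Other gene models were not compared by level. The median log2 ratio in non-muscle was 1.19 over the 13 members of at least 10000 CPM, 0.84 over the 13 below them and 0.55 over the 77 of 100 to 1000 CPM. All 13 of the most abundant were higher in non-muscle replicate 1 under both scalings, and in muscle 12 of them were higher in replicate 1 under TMM and 10 under plain totals. Within these 13, NVE14552 and NVE2876 stood at 0.58 and 0.44, below the other 11, which ranged from 0.91 to 1.74. In non-muscle replicate 2 they stood at 7.52% and 8.61% of their muscle mean, where the other 11 lay from 3.60% to 7.46%. The level in that library also enters the ratio that set them apart, so nothing is read from these percentages. The split was chosen after the values were seen.

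The log2 ratio of replicate 1 to replicate 2, taken with its sign, was related between the 2 fractions. The direction alone showed little of this: under TMM, 60 of the 62 members higher in muscle replicate 1 were also higher in non-muscle replicate 1, but so were 37 of the 41 higher in muscle replicate 2. NVE7213 had the largest ratio between muscle libraries, with 804 and 418 CPM in muscle, against 95.6 and 34.9 CPM in non-muscle. NVE1274 had 222 and 122 CPM in muscle, against 26.3 and 13.6 CPM in non-muscle. NVE20628 had 21428 and 12019 CPM in muscle, against 1956 and 620 CPM in non-muscle. In each of these 3 members both replicate 1 libraries were the high ones of their fraction. NVE2539, which with NVE1725 and NVE20628 had the largest ratios between the non-muscle libraries, had 503 and 308 CPM in muscle, against 45.2 and 13.9 CPM in non-muscle. NVE2539 was likewise high in replicate 1 of both fractions, with log2 ratios of 0.71 in muscle and 1.67 in non-muscle.

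Over the 103 members, the log2 ratio of replicate 1 to replicate 2 in muscle and the same ratio in non-muscle were related with Pearson's r at 0.50 and Spearman's rho at 0.44. Within the 13 members of at least 10000 CPM the values were 0.64 and 0.58, and within the 90 other members 0.41 and 0.34. The 902 other gene models of at least 100 CPM in muscle gave 0.42 and 0.38, so a relation was also seen outside the members. The points of each set share the same 4 libraries. Replicate numbers were given in accession order and the labels do not tie a muscle library to a non-muscle library, so a shared dissociation or batch cannot be read from the numbers.

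**Figure D5:**
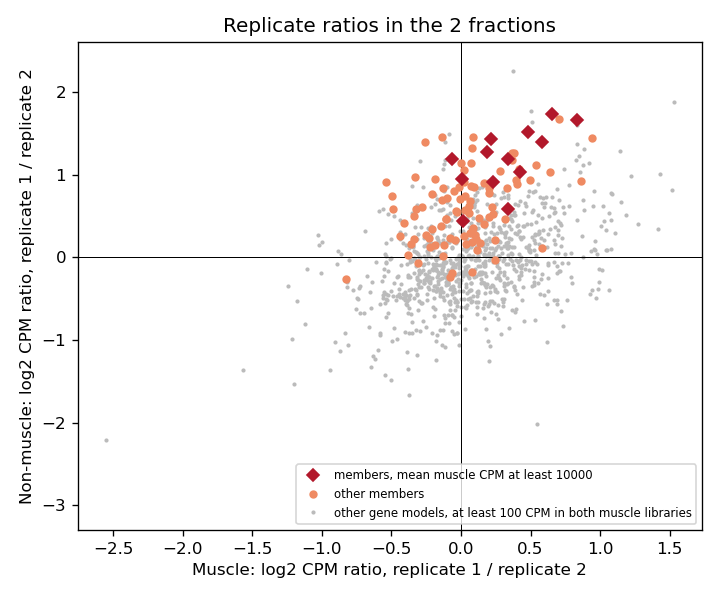
Log2 CPM ratio of replicate 1 to replicate 2 (TMM-scaled, pseudocount 0.5 CPM) in muscle (x) and in non-muscle (y), for the 13 members of at least 10000 CPM, the 90 other members and the 902 other gene models of at least 100 CPM in both muscle libraries. Under this scaling 60 members lie in the upper right quadrant, 37 in the upper left, 4 in the lower left and 2 in the lower right.

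Only 6 of the 103 members had more in non-muscle replicate 2 than in replicate 1 under TMM, and they are named here after their values were seen: NVE5716, NVE22984, NVE12517, NVE5715, NVE17024 and NVE16668. Their mean muscle levels ran from 107 to 1240 CPM, so none was among the 13 most abundant. Their log2 fold changes ran from 2.22 to 2.81, all below the members' median of 3.15. The non-muscle values that picked these 6 also enter the fold, so nothing is read from their lower folds. NVE5716 had 1207 and 1274 CPM in muscle, against 162 and 191 CPM in non-muscle. NVE5715 had 154 and 191 CPM in muscle, against 36.3 and 38.0 CPM in non-muscle. These neighbours in identifier number shared the order of libraries in both fractions, with replicate 2 the higher under TMM. Under plain totals 4 members were higher in non-muscle replicate 2. NVE5716 was among them, at 0.0214% and 0.0226% of the non-muscle counts (replicates 1 and 2). NVE5715 was not, at 0.00477% and 0.00448%, so the shared order of this pair depends on the scaling.

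Consecutive identifier numbers occurred in 4 members, the pair NVE5715 and NVE5716 and the pair NVE2875 and NVE2876. Allowing a distance of up to 3 numbers added none. NVE2875 had 817 and 893 CPM in muscle, against 75.2 and 74.3 CPM in non-muscle. Its log2 fold change was 3.52 (SE 0.32), against 3.30 (SE 0.35) for NVE2876. NVE5715 had a log2 fold change of 2.22 (SE 0.31) and NVE5716 one of 2.81 (SE 0.31), from the same edgeR fit. Each SE belongs to the contrast of 1 gene model, and differences between gene models were not tested. The files do not say whether consecutive numbers mark neighbouring genes, copies or parts of 1 gene, and reads of near-identical copies may have been split between them.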

How the data were processed

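RNA of FACS-sorted mesentery cells was sequenced as 4 polyA libraries, 2 per fraction. The authors deposited unnormalised read counts for each gene model, 1 column for each library, per the file headers. Cutadapt and TopHat are listed in the submitters' processing notes. The genome build, annotation, counting tool and use of strand were not given in the sources used here. Every column of values was used.

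From these counts, TMM factors were computed over all 25729 rows (edgeR 4.0.16, R 4.3.3) and members were taken at a minimum of 100 CPM and a ratio of 4. Gene models passing filterByExpr (minimum count 10, minimum total 15) were fitted with edgeR's quasi-likelihood test (robust, 2-sided, no covariate) with Benjamini-Hochberg adjustment over all of them and a threshold of 0.05. The SE is the log2 fold change over the square root of F. The fit was tested on simulated data. DESeq2 1.42.0 and limma 3.58.1 were alternatives.

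Members and lists were chosen with earlier results of these data known. Members are named by fixed rules: the 10 highest in muscle, the 5 highest and 5 lowest ratios, the 3 nearest each limit on either side, the 3 largest replicate ratios per fraction, and consecutive identifier numbers. Marker lists were not applied, since no identifier matched a name. Library totals of 31813772 to 67102862 counts leave the number of libraries, not depth, as the limit on precision.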

Additional observations from a re-analysis of the deposited data

How the results depend on the processing

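The rule depended on its scaling and limits. With plain library totals it found 45 gene models, with a minimum of 50 CPM 161, with a ratio of 2 it found 247 and with a ratio of 8 it found 28. RLE or upper-quartile factors found 99 each. All found under these scalings or the stricter limits (a minimum of 200 CPM found 72) were among the 103. For the stricter limits this holds by construction. It does for plain totals too, which lower every muscle CPM and raise every non-muscle CPM relative to TMM. The overlap is therefore no sign of stability. Leaving out each library in turn, with the scaling recomputed, found 103 to 136, of which 96 to 102 were members.

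Of all tested gene models, 4262 were called higher in muscle and 3894 lower. Plain totals gave 2246 and 6873, and leaving out single libraries gave 2281 to 4561 higher and 1406 to 4333 lower, the lowest without muscle replicate 2. The number lower was 2442 when muscle replicate 1 was left out. The cause was not tested. Such fits take the single library left in a fraction to have the spread of the other fraction. The median log2 fold change of the members was 2.49 with plain totals, and 2.87 to 3.53 without single libraries. The summed muscle share was 48.7% of the TMM-scaled library size and 31.2% without NVE14552, and 37.1% to 40.8% by single library. The non-muscle share was 3.52% to 7.29% by single library, a 2-fold spread that rests on which library is kept.

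The median log2 ratio between the muscle libraries reversed, at -0.060 with plain totals. That between the non-muscle libraries was 0.77 with plain totals and 0.85 over members of at least 500 CPM. The 28 named members were called higher in each of the 10 other fits, which the choice of members on this contrast fixes largely in advance and which is no sign of stability. No paired fit was made. The library numbers in the labels are consecutive between fractions, but the labels do not say that a muscle and a non-muscle library share animals or a batch, and such pairs were not assumed.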
